A study of Mus musculus with 10 samples.

Results

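DNA methylation was examined at 10 genes that mark or maintain spermatogonial stem cells and their fetal precursors, the prospermatogonia: Gfra1, Thy1, Itga6, Kit, Ret, Zbtb16, Id4, Etv5, Nanos2 and Sall4. The genes were taken as a named list, and their members are the CpG cytosines measured in the gene body or in the 2000 bases upstream, 1211 of 1348062 in the deposited table (376 in promoters, 796 in the rest of the gene bodies and 39 further upstream). Prospermatogonia were isolated at gestational day 18 from male fetuses of C3H/HeN dams that drank tap water (control, 5 pools) or tap water with 85 ppm sodium arsenite from gestational day 8 to 18 (arsenic, 5 pools). Each pool held 36 testes of 18 embryos, with at most 2 testes from a dam, and the cells were taken by magnetic sorting for Thy1.2 (CD90.2), the protein of 1 of the 10 genes. The study left out 1 further arsenic pool of lower depth, which was not analysed here. The comparison asks whether arsenic in the drinking water of the dam altered DNA methylation in the germ cells of the fetus.

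The prospermatogonium is the resting male germ cell of the late fetal testis, from which the stem cells of spermatogenesis descend. In these cells the methylation erased earlier in the germ line is laid down again, while the CpG-rich promoters of active genes stay free of it. Stem cell self-renewal depends on GDNF, which binds GFRA1 and signals through RET to transcription factors such as ETV5, whereas KIT, the receptor of KIT ligand, marks the turn to differentiation.

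Levels are the percentage of reads with a methylated cytosine at a CpG, averaged over the CpG cytosines of a region without weights, with the 2 strands of a CpG counted apart. A promoter is the window within 1000 bases of an annotated protein-coding start, on the mm10 genome with GENCODE M21 genes. Genes that are not protein-coding enter the shares over all genes with the starts of their own transcripts. Of the 22011 promoters and 19850 bodies of all genes, 13948 and 14562 are of protein-coding genes. Coverage summed over all CpG cytosines, which counts a read once at each cytosine it covers, ran from 44207245 to 66570870 per pool. The median coverage of a cytosine ran from 25 to 40 reads. Over the cytosines of the 10 genes the coverage summed in this way was between 37106 and 55084 per pool. At the minimum coverage of 10 reads, a level of 5 in 10 has a 95% Wilson interval from 23.7 to 76.3%, and such intervals cover counting error only. The mean level of all CpG cytosines was 42.1% in arsenic 1 and between 45.2 and 47.3% in the other 9 pools, so the values without arsenic 1 are given wherever leaving it out changed a call.

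In the deposited counts the identity of the cells can be read only from DNA methylation, and the expression of marker genes, which the study also measured in the sorted cells, was not analysed here. Promoters of germ cell genes such as Dazl and Ddx4 are as a rule unmethylated in germ cells and methylated in body cells. The 11 measured promoters of a list of 14 such genes averaged 56.8% ± 1.73 in the control pools and 59.7% ± 9.39 in the arsenic pools (SD, n = 5), which goes against DNA from germ cells alone. The control pools spanned 54.8 to 59.1%, and the arsenic pools were at 46.5, 55.1, 61.3, 63.9 and 71.4%. Promoters of 9 maternally methylated imprinted loci, which are erased in fetal male germ cells, averaged 37.1% ± 3.15 in control and 40.4% ± 9.89 in arsenic pools, again with arsenic 1 lowest at 27.4% and arsenic 5 highest at 54.7%. The 4 measured promoters of 9 Sertoli and Leydig cell genes averaged 4.35% ± 1.01 in control and 4.23% ± 1.18 in arsenic pools. In the germ cell and imprinted promoter lists the arsenic pools differed among themselves by more than the control pools did. In the Sertoli and Leydig list the spreads were similar. The part of cell composition in the values below was not tested. In pooled bulk DNA a change of methylation within germ cells and a change in the mix of cells cannot be told apart.

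For orientation, the sequence around 11 CpG cytosines of the 10 genes is shown, with the CpG in capitals. They are the cytosines whose control and arsenic levels did not overlap (at most 2 a gene), or where a gene had none, the cytosine with the largest difference between group means. Each window has 30 bases and is read 5′ to 3′ on the plus strand of mm10.
Gfra1, intron, chr19:58370043-58370072: atttggtttgcaaaCGctaattcaatacac
Ret, intron, chr6:118194707-118194736: gctctgggtgatgtCGaccgattatggctc
Kit, intron near the start, chr5:75575293-75575322: gagagacctcagccCGggtggtggagaccc
Thy1, upstream, chr9:44041709-44041738: aaagcttcagtgacCGtgccagggccaact
Itga6, intron, chr2:71837923-71837952: ggctgaaagagtccCGgggcaggaacattg
Etv5, intron, chr16:22430500-22430529: ctaccattaaaactCGagaaatgcatgagg
Zbtb16, intron, chr9:48692933-48692962: aaacacacctaaacCGagccctggcggcag
Zbtb16, intron, chr9:48768294-48768323: atggatcaaatgtaCGcagtaattgtagat
Id4, upstream, chr13:48259615-48259644: atggcgaaacaaaaCGgctgccttgtatgg
Nanos2, coding exon, chr7:18987806-18987835: ggggagtctcgtcaCGtctacacctcacac
Sall4, coding exon, chr2:168754873-168754902: ctcactgacggccaCGggctcgggagccgt

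In both groups 8 of the 10 promoters were nearly free of methylation, and the gene bodies, Id4 aside, were mostly methylated. The mean level over the 10 pools was at most 5% in the promoters of Gfra1, Itga6, Kit, Ret, Zbtb16, Id4, Etv5 and Sall4, that is 8 of 10, beside 55.6% of the promoters of all genes and 71.4% of those of protein-coding genes. Of the 376 promoter cytosines 343 were at 5% or below, and none was above 80%. Of the 796 body cytosines 301 were above 80% and 107 below 20%. The exceptions among the promoters were Thy1 and Nanos2, and the exception among the bodies was Id4, measured only near its start.

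**Figure D1:**
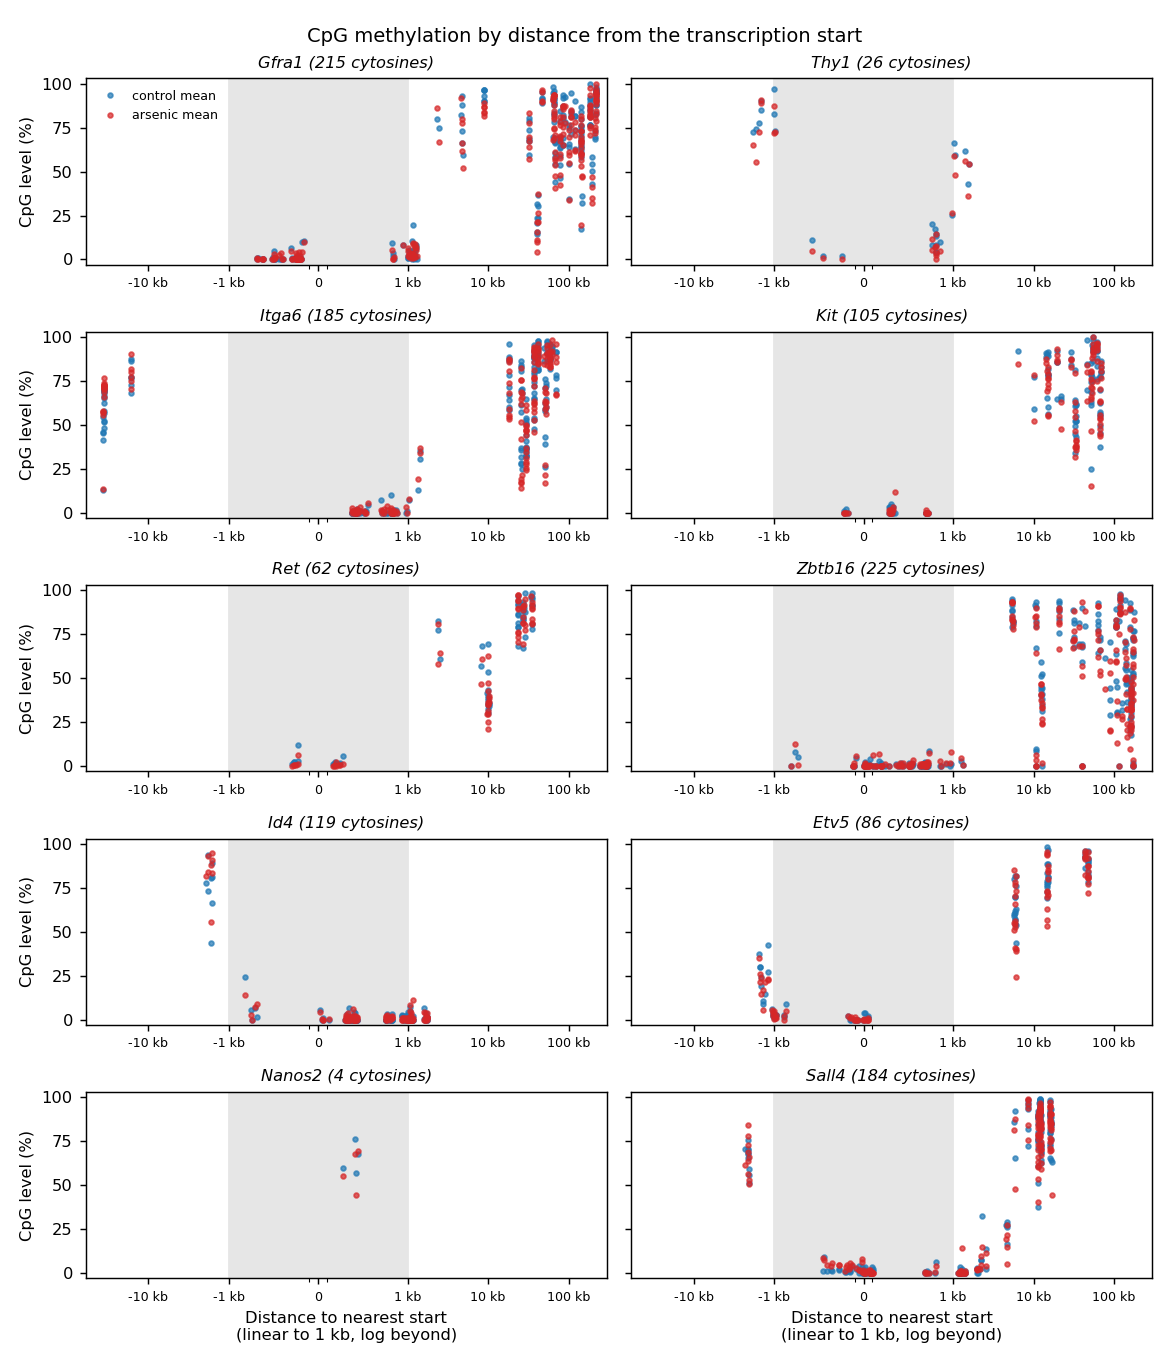
Mean level (%) of each CpG cytosine in the 5 control pools (blue) and the 5 arsenic pools (red) against its distance from the nearest protein-coding start, on an axis that is linear to 1 kb and logarithmic beyond; the grey band is the promoter window. Levels are near 0 around the start of 8 genes in both groups, intermediate to high at Nanos2, and high in the bodies other than that of Id4.

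The distance from the start to methylated DNA varied widely between genes. Going downstream, the nearest measured cytosine with a mean level of at least 50% was 280 bases from the Nanos2 start and 1035 bases from a Thy1 start. It was 2340 bases away at Gfra1, 2408 at Ret, 5353 at Zbtb16, 5665 at Etv5, 5752 at Sall4 and 6467 at Kit. At Itga6 no such cytosine was measured until 18256 bases downstream, and at Id4 none was measured downstream at all. Reduced representation bisulfite sequencing covers only part of a gene, here between 3.87 and 25.9% of the genomic CpGs of the 9 measured bodies and 0 of 6 in the body of Nanos2, so each distance is set by which fragments were read. Beyond the promoter window, no upstream cytosine was measured at Gfra1, Itga6, Kit, Ret, Zbtb16 or Nanos2.

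Of the receptors, Gfra1, the GDNF co-receptor (chr19:58235604-58455909), was low at its promoter in both groups, at 1.44% ± 0.533 in control and 1.36% ± 0.664 in arsenic pools (SD, n = 5, 44 cytosines). In its body, with 171 cytosines, the control pools were at 65.8, 64.0, 64.9, 64.9 and 65.3%, and the arsenic pools at 60.0, 64.1, 64.7, 62.5 and 60.8%. All 5 arsenic pools lay below the control mean, and arsenic 2 and arsenic 3 lay within the control range. The means, 65.0% ± 0.669 and 62.4% ± 2.04, differed by -2.58 percentage points (exact permutation p = 0.0238, two-sided, unadjusted; adjusted exact p = 0.435 over the bodies of all 19850 genes). Without any 1 of control 1, 3, 4 and 5 the exact p was 0.0556 to 0.0714. The 23 coding-exon cytosines of the Gfra1 body averaged 7.26%, the 132 intronic ones 70.1% and the 16 in the 3′UTR 92.2%, so the body was not uniform. At the intronic cytosine 84409 bases from the start, shown above, the control pools were at 95.4, 94.0, 91.6, 91.6 and 94.7%, and the arsenic pools at 83.2, 86.5, 87.6, 87.5 and 91.0%, without overlap.

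Ret, the receptor tyrosine kinase that carries the GDNF signal into the cell (chr6:118151745-118197718), had 14 promoter cytosines, all in its 5′UTR, at 2.88% ± 2.91 in control and 1.14% ± 0.60 in arsenic pools. The control mean rested on control 5, at 8.05%, while the other 4 control pools were between 1.06 and 2.10%. The difference was -1.75 points (exact permutation p = 0.127), and without control 5 it was -0.455 points. Leaving out control 1, which kept control 5, gave -2.20 points (exact p = 0.0317), the only 1 of 10 such fits under 0.05. The Ret body, with 48 cytosines, was at 71.6% ± 3.73 in control and 69.2% ± 3.16 in arsenic pools, a difference of -2.40 points that lay within the spread of the pools (exact permutation p = 0.294).

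Kit (chr5:75574916-75656722) had a promoter near 0, at 0.995% ± 1.71 in control and 1.00% ± 0.517 in arsenic pools. The control mean rested on control 2, at 4.00%, and without that pool the arsenic mean was 0.759 points higher (exact permutation p = 0.0476). No other fit that left out 1 pool gave the Kit promoter an exact p under 0.05. Its body, with 80 cytosines, all intronic, was at 79.96, 74.4, 72.4, 71.4 and 72.2% in the control pools and at 72.2, 67.3, 72.9, 68.7 and 70.6% in the arsenic pools. The groups overlapped, and the difference of means was -3.72 points (exact permutation p = 0.0714). Of the 10 fits that left out 1 pool, only that without arsenic 3 had an exact p under 0.05 (-4.36 points, exact p = 0.0476). In the others the exact p reached 0.159. One Kit promoter cytosine stood apart from its neighbours: 353 bases downstream of the start, in a CCGG site of the kind that MspI, the usual enzyme of this assay, cuts, it was read as methylated in 0 of 125 control reads summed over the pools, which allows a level of up to 2.40% (3 reads of the total, for counting error only). In the arsenic pools it was at 4.76, 4.00, 6.45, 20.9 and 22.7%, from 24 methylated reads of 187. In arsenic 1, arsenic 2 and arsenic 3 the methylated reads were 2 of 42, 1 of 25 and 2 of 31. Control 3 and control 4 had only 14 and 17 reads, so the lack of overlap rested on few reads. The other 24 Kit promoter cytosines, including the 12 that lay within 100 bases, had arsenic means of at most 3.33% and control means of at most 4.93%. Arsenic 4 and arsenic 5 thus held most of the methylated reads at this position.

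Of the adhesion and surface proteins, Thy1 (chr9:44043384-44048579), a cell surface glycoprotein, has 3 annotated coding starts, and its promoter window, with 14 cytosines, spanned levels from 1.07 to 72.7%. The control pools were at 14.2, 14.4, 13.8, 14.1 and 19.9%, and the arsenic pools at 14.6, 9.86, 11.2, 10.9 and 11.4%. Arsenic 1 lay among the control pools, the other 4 arsenic pools lay below all of them, and control 5 lay above the rest. The means of 15.3% ± 2.58 and 11.6% ± 1.76 differed by -3.71 points (exact permutation p = 0.0397, adjusted exact p = 0.794 over 22011 promoters), and without control 5 by -2.56 points (exact permutation p = 0.0476). Without arsenic 1 the difference was -4.46 points (exact permutation p = 0.00794), and leaving out any 1 of the other 4 arsenic pools gave an exact p of 0.0556 to 0.0794. The call at the Thy1 promoter was lost with both strands of a CpG merged (-3.11 points, exact p = 0.103) and with coverage of at least 20 reads (-1.999 points, exact p = 0.524). It was also lost with a narrower promoter window (-1.91 points, exact p = 0.167), with 1 kb upstream to 100 bases downstream (-2.74 points, exact p = 0.238) and with a coverage-weighted level (-3.20 points, exact p = 0.159). The Thy1 body, with only 7 cytosines, was at 66.3% ± 4.30 and 58.9% ± 6.60 (difference -7.38 points, exact permutation p = 0.0873). Without arsenic 1 the body difference was -9.06 points (exact p = 0.0476), the only 1 of 10 such fits under 0.05. In the others the exact p reached 0.175. The 5 upstream cytosines of Thy1, all shared with the annotated gene Gm39323, were at 79.9% ± 4.01 and 74.7% ± 6.23 (exact permutation p = 0.143).

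Itga6 (chr2:71745616-71858416), the integrin alpha 6 chain that binds laminin in the basement membrane, had a promoter at 0.848% ± 0.208 in control and 0.990% ± 0.217 in arsenic pools. Its body, with 139 cytosines, was at 68.6% ± 1.94 and 67.6% ± 2.10 (difference -1.04 points, exact permutation p = 0.452). Of these 139 cytosines 19 are shared with the annotated genes Gm13662, Gm13663 and Gm17250. The annotated gene entry of Itga6 opens well before the coding starts, and the 25 cytosines of that stretch averaged 61.9% in control and 68.7% in arsenic pools, the opposite direction to the rest of the body. Without them the body difference was -2.76 points (exact permutation p = 0.0873, an alternative chosen after seeing the data). At the intronic cytosine 50960 bases from the start the control pools were at 43.2, 54.5, 39.5, 33.3 and 26.1% and the arsenic pools at 20, 10, 13.8, 30 and 9.76%, with only arsenic 4 above the lowest control pool.

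Among the transcription factors, Zbtb16 (chr9:48654297-48836222), the PLZF zinc finger repressor that keeps spermatogonia from differentiating, had the body whose difference stayed under an unadjusted exact p of 0.05 in the most alternatives. Its promoter was at 0.874% ± 0.353 in control and 1.23% ± 0.585 in arsenic pools over 79 cytosines, 25 of which were never read as methylated. In its body, 146 cytosines that were all intronic, the control pools were at 61.2, 56.4, 57.2, 59.4 and 58.5% and the arsenic pools at 51.1, 54.9, 57.6, 52.8 and 51.5%. Only arsenic 3 lay within the control range. The means of 58.5% ± 1.90 and 53.6% ± 2.71 differed by -4.95 points (exact permutation p = 0.0238, adjusted exact p = 0.435). When any 1 pool was left out the Zbtb16 difference stayed between -5.96 and -4.27 points, with an unadjusted exact p of at most 0.0397, and a coverage-weighted level gave -5.58 points (exact p = 0.0714).

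Within the Zbtb16 body the levels ran from 0 to 96.2%. The cytosine at chr9:48663141, 172804 bases from the start and in a CCGG site, was read as methylated in 0 of 234 control and 0 of 283 arsenic reads, which allows up to 1.28% in control by the same limit of 3 reads. The cytosine of chr9:48692947, 142998 bases from the start, was at 31.0, 60.9, 30, 66.7 and 48.9% in control and 17.9, 29.0, 27.8, 9.52 and 0% in arsenic pools. That of chr9:48768308, 67637 bases from the start, was at 77.1, 79.2, 70, 71.4 and 68.8% in control and 60, 57.7, 62.2, 54.0 and 35.7% in arsenic pools. At both positions every arsenic pool lay below every control pool, at the first by a margin of about 1 point.

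Etv5 (chr16:22381309-22439719), an ETS factor induced by GDNF, was at 1.47% ± 0.673 in control and 0.814% ± 0.241 in arsenic pools at its promoter (exact permutation p = 0.0873; limma p = 0.038 on the log2 ratio of summed reads, adjusted p = 0.875). Without control 1 or control 4 the exact p was 0.0317, at -0.820 and -0.837 points. In the other fits that left out 1 pool the exact p of the Etv5 promoter reached 0.175. Its body, with 46 cytosines, was at 82.4, 75.2, 80.2, 74.9 and 78.5% in control and 72.7, 72.2, 74.5, 75.7 and 75.5% in arsenic pools, so that control 2 and control 4 lay among the arsenic pools. The difference was -4.15 points (exact permutation p = 0.0476, adjusted exact p = 0.477), and of the fits that left out 1 pool it kept an exact p under 0.05 only in those without control 2 or control 4; without arsenic 1 it was -3.79 points (exact p = 0.0873). At the intronic cytosine 6000 bases from the start control pools were at 57.7, 63.4, 68.3, 64.0 and 59.7% and arsenic pools at 34.6, 25, 33.3, 59.7 and 48.6%, with arsenic 4 just inside the control range. The 16 upstream cytosines, between the low promoter and the 2000-base limit, were intermediate, at 16.3% ± 1.87 and 14.4% ± 2.69 (exact permutation p = 0.238).

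Sall4 (chr2:168748332-168767943), a zinc finger factor of germ cells and pluripotent cells, was at 1.15% ± 0.563 in control and 1.94% ± 0.806 in arsenic pools at its promoter (exact permutation p = 0.135). Only without control 3, of the 10 fits that left out 1 pool, was the exact p of the Sall4 promoter under 0.05 (1.02 points, exact p = 0.0397). In the others it reached 0.27. The Sall4 body, with 124 cytosines, was at 63.1, 64.3, 64.8, 63.8 and 66.2% in control and 58.9, 60.6, 62.5, 63.3 and 63.9% in arsenic pools. The difference of -2.59 points had an exact permutation p of 0.0397 (adjusted exact p = 0.469), and arsenic 4 and arsenic 5 lay within the control range. Without arsenic 1 it was -1.85 points (exact p = 0.0714), and of the fits that left out 1 pool it kept an exact p under 0.05 only in those without control 1, arsenic 4 or arsenic 5. The Sall4 promoter window, and 17 cytosines of its body, are shared with the annotated non-coding gene Gm14261. The 63 coding-exon cytosines averaged 82.0% and the 61 intronic ones 43.6%. The 10 upstream cytosines of Sall4, beyond the promoter window, were at 65.3% ± 5.07 in control and 65.5% ± 5.52 in arsenic pools (exact permutation p = 0.992). In a coding exon 12142 bases from the start, Sall4 had a cytosine at 90.9, 100, 93.9, 100 and 92.9% in control and 67.4, 74.3, 75, 90.3 and 81.4% in arsenic pools, without overlap.

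Id4 (chr13:48261228-48266026), an inhibitor of helix-loop-helix factors found in cells with stem cell activity, was nearly unmethylated at its measured promoter and body cytosines. The promoter was at 1.09% ± 0.460 in control and 1.23% ± 0.586 in arsenic pools over 76 cytosines, and the body at 1.20% ± 0.572 and 1.52% ± 0.639 over 35. All 119 measured Id4 cytosines lay within 2000 bases of its start, so the farther part of the gene had no data. Within that distance all measured cytosines of Gfra1, Kit, Ret, Zbtb16 and Sall4 were also below 20%. So were 48 of 50 at Itga6 and 34 of 40 at Etv5, but 12 of 26 at Thy1 and 0 of 4 at Nanos2. A body level as low as that of Id4 had 1.11% of the bodies of protein-coding genes below it. That rank of Id4 rests on cytosines near its start. The 8 cytosines further upstream were methylated, at 74.1, 70.6, 86.0, 80.2 and 67.5% in control and 74.2, 83.8, 87.9, 82.4 and 90.9% in arsenic pools (difference 8.15 points, exact permutation p = 0.0952). That difference had an exact p under 0.05 in 1 of 10 fits leaving out 1 pool, without control 3 (10.73 points, exact p = 0.0397). In the others the exact p reached 0.19. The cytosine 1599 bases upstream was at 65.6, 75, 69.0, 71.0 and 52.0% in control and 76.5, 87.5, 84.6, 78.6 and 89.5% in arsenic pools, the opposite direction to the gene bodies. The Id4 window is shared with 2 annotated non-coding genes, A330033J07Rik and Gm49291, and its values cannot be told apart from theirs.

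Nanos2 (chr7:18987400-18988962), the RNA-binding protein that sets the male fate of fetal germ cells and preserves stem cells, was covered by only 4 cytosines, which lie in its coding exon 280 to 446 bases downstream of the start. Their mean level, higher than that of 93.6% of the promoters of protein-coding genes, was 67.7, 62.1, 70.03, 60.1 and 65% in control and 66.1, 52.6, 59.8, 61.7 and 55.7% in arsenic pools. The groups overlapped, and the difference was -5.82 points (exact permutation p = 0.0952). Without arsenic 1, which lay among the control pools, it was -7.56 points (exact permutation p = 0.0317). No other of the 10 fits that left out 1 pool had an exact p under 0.05, and they reached 0.19. The cytosine 420 bases from the start was at 54.5, 56.2, 51.4, 61.5 and 60% in control and 48.3, 40.8, 32.1, 52.6 and 47.3% in arsenic pools, with only arsenic 4 reaching the control range. No cytosine of the remaining Nanos2 gene or of its upstream flank was in the table, and the annotated gene Gm45058 overlaps the measured stretch.

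**Figure D2:**
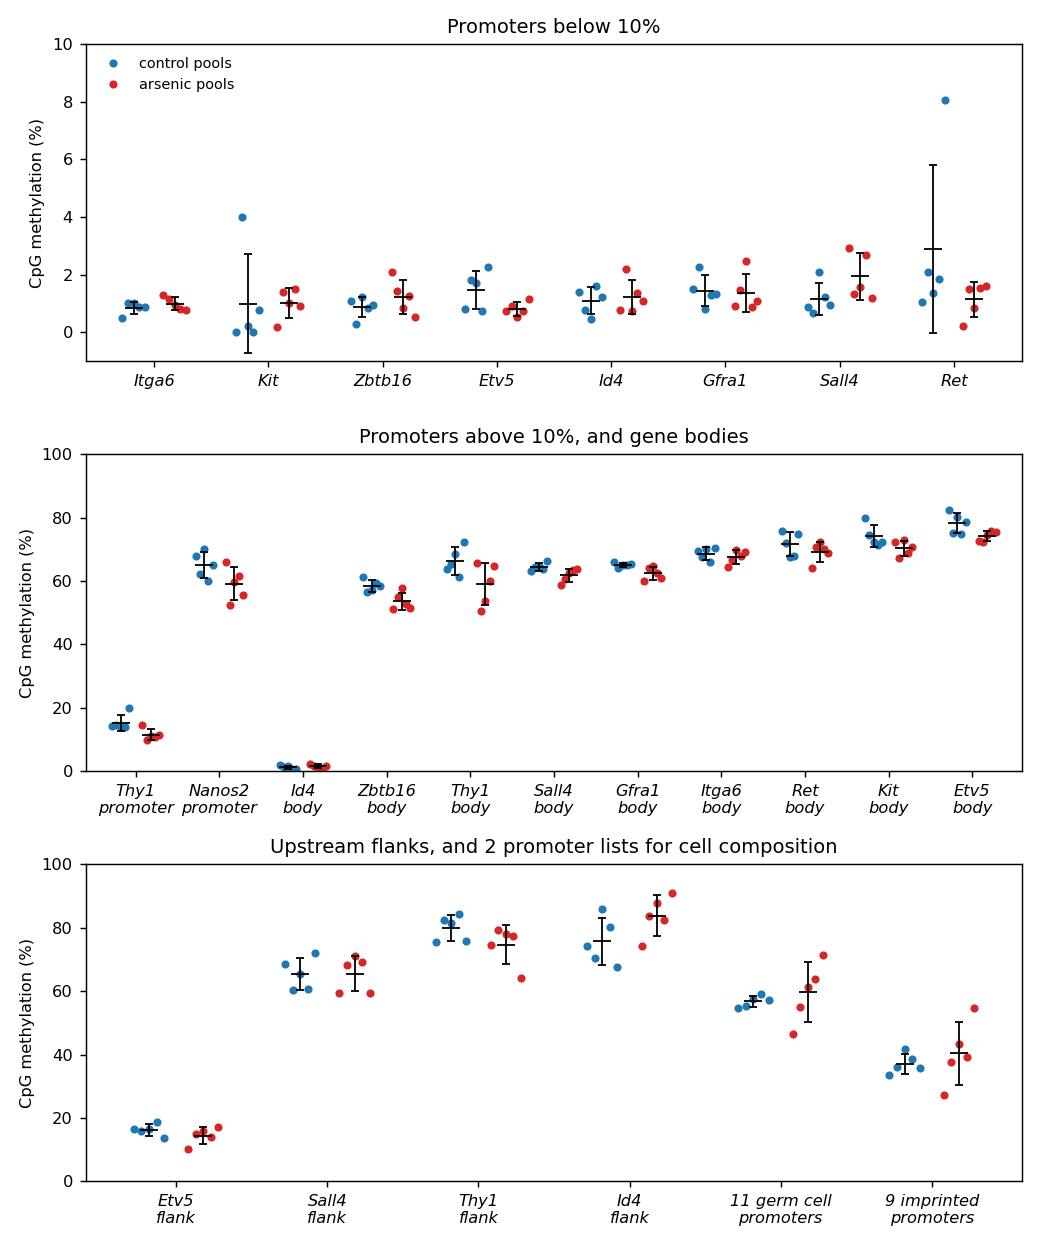
Mean CpG methylation (%) of each region in each pool (points; blue control, red arsenic), with the group mean and SD of 5 pools (black); the scale of the top panel ends at 10%, the others at 100%. Single control pools stand above the rest at the Ret and Kit promoters, body levels of arsenic pools are mostly lower with overlap, and the arsenic pools spread more widely than the control pools in the 2 composition lists.

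Set beside all genes, the bodies shared a direction that most bodies of the genome also had. The arsenic mean was below the control mean in 8 of the 9 measured bodies, all but Id4, and in 66.6% of the bodies of all genes. Without arsenic 1 the same count was 8 of 9, beside 55.3% of all bodies. At an unadjusted exact p under 0.05, 4 of the 9 were lower (Gfra1, Zbtb16, Etv5 and Sall4) and 0 higher, beside 8.99% of all bodies lower and 0.992% higher. Larger and methylated bodies were lower more often than that. Among bodies with at least 30 cytosines and a mean level of at least 50%, 77.0% were lower and 17.6% passed an exact p under 0.05, and there 7 of 7 members were lower with the same 4 passing. The median difference of those 7 was -2.59 points, beside -1.51 points over the 4357 such bodies, and Zbtb16 alone of the 7 lay below their 5th percentile, -4.37 points. Without arsenic 1, the pool of lowest genome-wide level, the median of the 7 was -1.96 points and that of all such bodies -0.663 points, and 62.1% of such bodies were lower. No member body passed after adjustment over all bodies, and no member promoter or body had groups without overlap, which 1.89% of all bodies had in the lower direction.

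**Figure D3:**
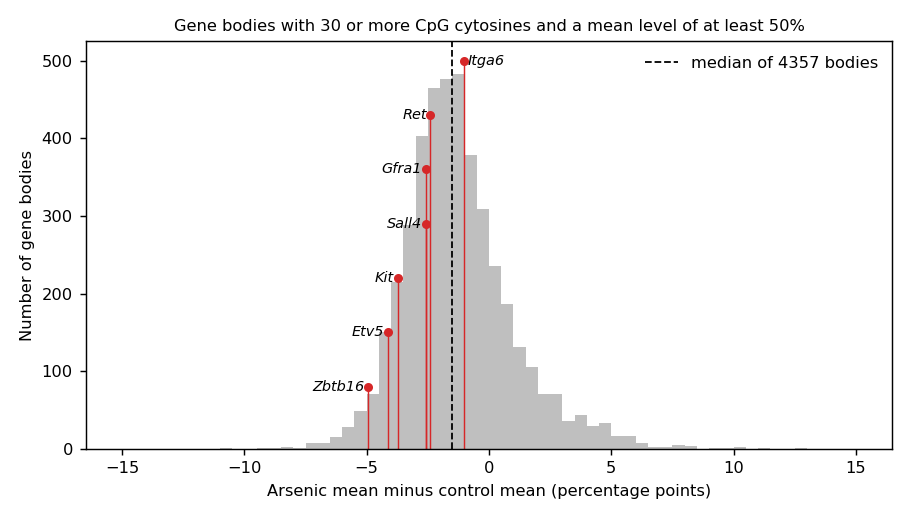
Histogram of the arsenic mean minus the control mean (percentage points) over 4357 gene bodies with at least 30 CpG cytosines and a mean level of at least 50%; red lines mark the 7 members and their heights carry no value, and the dashed line is the median of all, -1.51 points. All but Itga6 lie to the left of the median, and Zbtb16 lies farthest out at -4.95 points.

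For the promoters the arsenic mean was below the control mean in 5 of 10, beside 47.1% of all promoters, and 1, that of Thy1, passed an unadjusted exact p under 0.05 in the lower direction, beside 3.00% of all. With limma 0 promoters and 0 bodies of any gene passed an adjusted p of 0.05, the members' smallest adjusted p being 0.875 and 0.676. At an unadjusted limma p under 0.05 there were 1 member promoter and 1 member body, both of Etv5 and both lower, beside 2.88 and 6.11% of all in that direction. The bodies of Zbtb16, Gfra1 and Sall4, under 0.05 by the unadjusted exact test, had an unadjusted limma p of 0.0918, 0.193 and 0.355. For the Thy1 promoter the unadjusted limma p was 0.178.

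Single cytosines were tested by logistic regression on reads, as differentially methylated cytosines (DMCs) with q of at most 0.01 and a pooled difference of at least 10 points. This test counts each read as independent and takes no account of the spread between pools. It called 30 of the 1211 member cytosines lower (hypoDMCs, 2.48%), beside 1.48% of all cytosines, and 3 higher (hyperDMCs, 0.248%), beside 0.784%. None of the hypoDMCs lay in a promoter, where 0.380% of all cytosines were called lower, and 29 of the 796 body cytosines were called, 3.64% beside 2.20% of all body cytosines. Among cytosines with a mean level of 10 to 90%, where such a difference is possible in both directions, 4.28% of 607 members were hypoDMCs, beside 2.44% of all.

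The hypoDMCs belonged to 6 genes. In the bodies there were 8 in Zbtb16, 7 in Gfra1, 4 in Kit, 4 in Etv5, 3 in Itga6 and 3 in Sall4, and 1 more lay upstream of Etv5, beyond the promoter window. Thy1, Ret, Id4 and Nanos2 had none. Cytosines within 100 bases of each other often lie on the same reads, and by that distance the 30 hypoDMCs formed 22 runs. The 3 of Sall4 were 1 run in a coding exon, and 3 of Zbtb16 formed a run around the position 142998 bases from the start. The 3 hyperDMCs were the Kit promoter cytosine described above, 1 in the Kit body 19504 bases from the start (64.6% in control, 86.8% in arsenic pools) and 1 in the Itga6 stretch before the coding starts. With cytosines shared with another annotated gene left out, 2 of the 3 hyperDMCs remained.

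Measured against the spread between pools, these calls did not hold. The variance between pools was 2.26 times the binomial variance in the median member cytosine of 10 to 90%, and 2.25 times over all such cytosines. When the logistic test was given this overdispersion, with an F test, 0 member cytosines passed, the smallest q over all cytosines being 0.799, and 78 members (6.44%) had an unadjusted p under 0.05, beside 5.40% of all cytosines. With limma on each cytosine 0 passed at an adjusted p of 0.05 (smallest 0.83 among members). At an unadjusted limma p under 0.05 there were 68 lower, 5.62% beside 4.26% of all cytosines, and 18 higher, 1.49% beside 1.74%. Of the 30 hypoDMCs, 6 were called in every fit that left out 1 pool, 4 in Zbtb16 and 2 in Etv5, and 0 of the 3 hyperDMCs were. The same share over all cytosines is not given here.

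Levels of the 5 arsenic pools all lay below those of the 5 control pools at 6 member cytosines, 0.495% beside 0.474% of all, and all above at 2, 0.165% beside 0.219%. Both shares were close to the background. The 6 were 4 in Zbtb16, 1 in Gfra1 and 1 in Sall4, and the 2 were the Kit promoter cytosine and the cytosine upstream of Id4.

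**Figure D4:**
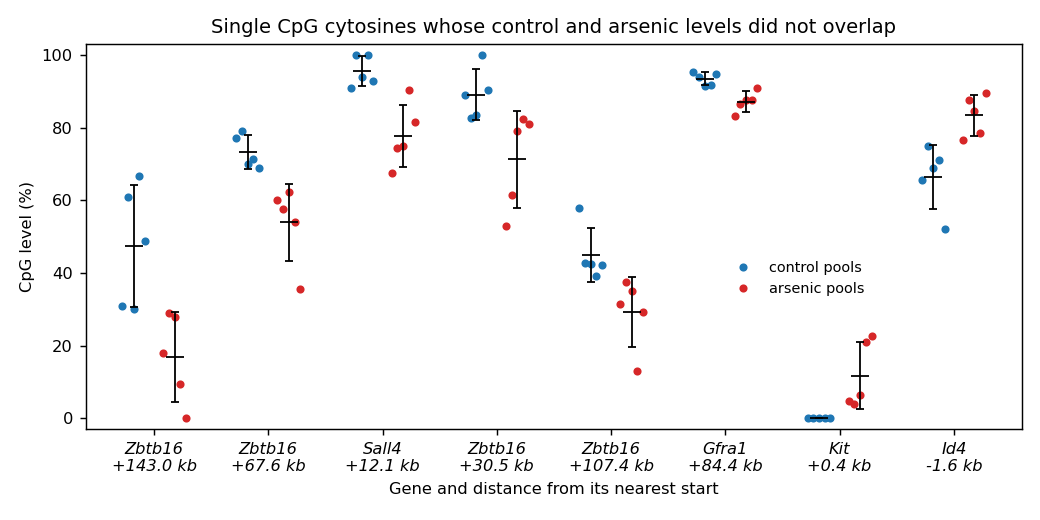
Level (%) in each pool of the 8 member cytosines whose groups did not overlap (points; blue control, red arsenic), with the group mean and SD of 5 pools (black), labelled by gene and distance from the nearest start and ordered by difference. Arsenic pools lie below control pools at 6 of them and above at the Kit and Id4 cytosines.

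The wider pathway was read from a list of 42 further genes, ligands and receptors, transcription factors, differentiation genes, prospermatogonia genes and surface proteins. Of 35 promoters with data 16 had a lower arsenic mean, beside 47.1% of all promoters, and 1, beside 3.00% of all, that of the GDNF family receptor Gfra2, had an exact p under 0.05 in that direction. Of 39 bodies 28 were lower, beside 66.6% of all bodies, with a median difference of -0.682 points beside -1.09 points over all bodies, and 3, beside 8.99% of all bodies, had an exact p under 0.05, those of Cd9, Csf1r and Pax7, all lower. These counts were near the background. None of the 42 genes passed after adjustment over all genes. Only the body of Cd9, a tetraspanin of the spermatogonial surface, had groups without overlap, beside 1.89% of all bodies. Over its 57 cytosines the control pools were at 78.3, 77.3, 76.2, 78.0 and 77.8% and the arsenic pools at 61.2, 72.3, 72.9, 72.9 and 71.3% (exact permutation p = 0.00794, the smallest this design allows, adjusted exact p = 0.39). Arsenic 1, lowest in Cd9, was also the lowest pool of the 10 in the genome-wide mean level.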

How the data were processed

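Reduced representation bisulfite sequencing measured CpG methylation in 5 control and 5 arsenic pools of prospermatogonia. According to the submitters' processing notes, reads were handled with Trim Galore 0.6.5, Bismark 0.22.3 and methylKit 1.22.0 on mm10; the treatment of duplicates and of overlapping mates is not given in the sources used here. The authors deposited counts of reads, methylated reads and unmethylated reads per CpG cytosine and pool, listing cytosines with at least 10 reads in every pool; 1039 of 1349101 entries outside the main chromosomes were not used. Bisulfite does not separate methylated from hydroxymethylated cytosine, a base that differs between C3H/HeN and the mm10 reference strain can be read as an unmethylated cytosine, and end repair can fill in cytosines of CCGG sites, the usual cutting sites of this assay, which hold 220 of the 1211 cytosines.

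Genes came from GENCODE M21 (GRCm38.p6). Group levels were compared by exact permutation of the 252 assignments (two-sided, smallest p 0.00794), unadjusted and with Benjamini-Hochberg adjustment over all genes. limma 3.58.1 was fitted in R 4.3.3 on log2((methylated + 1)/(unmethylated + 1)) over all promoters, bodies or cytosines. Logistic regression per cytosine used likelihood ratios. Other steps used Python 3.11.15, scipy 1.17.1 and pysam 0.24.0. The scripts were tested on simulated data. All 10 genes are named; single cytosines are named where groups did not overlap (at most 2 a gene), else by the largest difference, and at the lowest and highest level of a region between 10 and 90%; pathway genes are named only where groups did not overlap or limma passed, other names there having been added after their values were seen. Replicates are pools of separate embryos, and whether embryos of the same dam went into different pools is not stated. Replicate numbers were not used to pair pools, since the deviations of same-numbered pools did not correlate (-0.0149 to 0.0367). The genes and lists were chosen with earlier results of these data known. Alternatives covered coverage, strand merging, promoter width, annotated starts, weighting, overdispersion, thinning of reads, a replicate block and leaving out each pool.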

Additional observations from a re-analysis of the deposited data

Results flagged for a closer look

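In 3 of the 46 groups of 5 pools examined, 1 pool lay far from the other 4 by Dixon's criterion, which chance alone meets in about 1 of 20 groups. At the Thy1 promoter control 5 was at 19.9%, with the other control pools between 13.8 and 14.4%. At the Kit promoter control 2 was at 4.00%, with the others between 0 and 0.764%. At the Ret promoter control 5 was at 8.05%, with the others between 1.06 and 2.10%.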

How the results depend on the processing

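The count of member hypoDMCs, 30, was 17 with coverage of at least 30 reads, 17 with strands merged, 7 at a difference of at least 20 points, 0 with the overdispersion F test, 0 with reads thinned to 10, and 22 to 34 when 1 pool was left out. The 3 hyperDMCs became 0 with coverage of at least 30 reads, 0 with the F test and 0 with thinned reads, and 1 to 9 when 1 pool was left out. The shares over all cytosines in these settings are not given here, so the changes cannot be read as particular to the members. The 6 cytosines without overlap in the lower direction became 3 with coverage of at least 20 and 2 with at least 30 reads, and the 2 in the higher direction became 0 with either; with 1 pool fewer, which makes overlap rarer by construction, they were 10 to 17 and 3 to 7. The 5 promoters and bodies with an unadjusted exact p under 0.05 became 2 with coverage of at least 30 reads, 2 with a coverage-weighted level and 2 to 5 when 1 pool was left out, the 2 without control 5 or without arsenic 2; they became 7 with promoters of 2 kb either side and 6 with promoters from 1 kb upstream to 100 b downstream. The replicate block gave 0 of them, where the smallest exact p it allows is 0.0625, and limma with the block also called 0. Over the 23 regions, 482 alternative values were computed, of which 383 kept direction and side of 0.05, 39 differed in sign with neither value under 0.05, 42 were no longer under it and 18 came under it. When 1 pool was left out, the exact p passed 0.05 in 4 of 10 fits at Gfra1 body (each of control 1, 3, 4 and 5; p up to 0.0714), 4 at Thy1 promoter (arsenic 2 to 5; up to 0.0794), 7 at Sall4 body (all but control 1, arsenic 4 and arsenic 5; up to 0.0952) and 8 at Etv5 body (all but control 2 and control 4; up to 0.0873). Coverage sets a limit: at 10 reads, 0 methylated reads allow a level of up to 30% (3 reads of 10). No test here separates cell composition from methylation within germ cells.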
